A study of Mus musculus with 1119 samples.

Results

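The hedgehog pathway was followed through 8 of its genes, the ligand Shh, its receptor Ptch1, the signal transducer Smo, the transcription factors Gli1, Gli2 and Gli3, their inhibitor Sufu and the decoy receptor Hhip. They are 8 of the 46517 genes in the authors' tables and were picked by symbol, and each has a row in all 3 tables. Their levels are given across 6 cell types of mouse back skin from postnatal day 21 (P21), when the hair follicle rests (telogen), to P30, when it grows (anagen).

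A hedgehog ligand binds Ptch1 on the receiving cell and lifts the block that Ptch1 places on Smo. The signal passes through the primary cilium, where Sufu holds Gli2 and Gli3, and Gli3 in particular is cut to a repressor when no ligand is present. Gli1, Ptch1 and Hhip are themselves switched on by the pathway in many tissues, so Gli1 and Ptch1 are commonly read as its output, while Ptch1 and Hhip also bind and hold back the ligand. In the hair follicle, Shh from the growing epithelium is known to drive the expansion of epithelial progenitors and to signal to the dermal papilla, the cluster of mesenchymal cells at the follicle's base.

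The 1119 samples are single cells, sorted into plates and copied with Smart-seq2, a method that reads along the whole transcript. The P21 cells were 71 telogen hair germ cells and 39 telogen bulge stem cells, the reservoir above the germ. The P23-P24 cells were 73 hair germ cells of the first anagen stage. The P25-P27 cells were matrix cells of the second anagen stage (transit-amplifying cells, TACs), 55, 76 and 68 on 3 plates, and 16 hair germ cells that the authors annotated to the first stage, like those of P23-P24. All of these came from mice of mixed sex with the alleles Lgr5-eGFPiresCreER and R26-tdTomato, which mark and trace Lgr5-expressing cells, and were sorted on GFP, tdTomato, integrin α6, integrin b1, CD34 and Pcadherin. At P30, in the sixth anagen stage, dermal papilla cells came from male K14-H2BGFP;LEF1-RFP mice, 87, 87, 86 and 77 on 4 plates, sorted on GFP, RFP, integrin α9 and CD117. Matrix cells of the same stage came from Lhx2-GFP (CD1) mice of mixed sex, 76, 78, 75, 74 and 81 on 5 plates, and were sorted on Sca-1 in addition to GFP, both integrins, CD34 and Pcadherin. No animal is named in the labels. Each group therefore counts as 1 sample, no test was run, and the exact 95% binomial intervals on shares cover counting error only.

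Some groups stood apart before any hedgehog gene was read. Medians of 5328.5 to 7361.5 genes per cell were seen, that is at a level of 1 or more TPM (transcripts scaled to the same total in every cell), with the highest in P30 matrix. Ribosomal RNA took medians of 54.5% to 76.8% of TPM, again with the highest in P30 matrix. In the dermal papilla, 33 cells had fewer than 2000 genes and 33 had none of the 8 hedgehog genes. The labelled types were checked against their markers. In the dermal papilla group, 89.6% of cells had 3 or more of 9 dermal papilla markers and 0.297% had 3 or more of 5 keratinocyte markers. The P25-P27 matrix cells carried few matrix markers: 10.6% had 3 or more of 7, with Lef1 in 41.7%, Msx2 in 23.6% and Padi3 in none, while 75.4% had 3 or more of 6 bulge markers and Krt15 was seen in 90.95%. In P30 matrix, 85.2% had 3 or more matrix markers, but 41.4% also had 3 or more of 4 melanocyte markers, with summed levels of 0 to 15790 TPM and a median of 23.1 TPM. Comparisons that involve P30 cells also cross tables, strains and sorts, which cannot be told apart from the cell type or age.

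In GENCODE M21 (build GRCm38) all 8 are protein-coding genes. Ptch1 and Gli3 share chromosome 13, at 63508328 to 63573598 on the minus strand and 15463235 to 15730026 on the plus strand. Gli1 lies on chromosome 10 (127329882 to 127341974, minus strand), Gli2 on chromosome 1 (118834132 to 119053619, minus strand), Smo on chromosome 6 (29735503 to 29761365, plus strand) and Sufu on chromosome 19 (46396896 to 46488804, plus strand). Promoters are shown for the genes whose levels separate the groups most, Hhip and Gli3, and for Ptch1, the receptor that the pathway itself induces. The windows run from 250 bases before to 50 bases after the RefSeq start (build GRCm38.p6), 5′ to 3′ on the gene's strand, at chr8:80057959-80058258 on the minus strand for Hhip, chr13:15463473-15463772 on the plus strand for Gli3 and chr13:63565686-63565985 on the minus strand for Ptch1. Capitals mark CCACCC or its reverse complement GGGTGG, the core of the sequence that GLI proteins bind.
Hhip: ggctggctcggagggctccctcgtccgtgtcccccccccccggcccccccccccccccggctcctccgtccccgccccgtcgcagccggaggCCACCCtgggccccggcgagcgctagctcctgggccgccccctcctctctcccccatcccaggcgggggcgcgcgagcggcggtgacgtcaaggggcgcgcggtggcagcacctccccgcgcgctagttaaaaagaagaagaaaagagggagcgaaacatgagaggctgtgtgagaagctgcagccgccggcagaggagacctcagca
Gli3: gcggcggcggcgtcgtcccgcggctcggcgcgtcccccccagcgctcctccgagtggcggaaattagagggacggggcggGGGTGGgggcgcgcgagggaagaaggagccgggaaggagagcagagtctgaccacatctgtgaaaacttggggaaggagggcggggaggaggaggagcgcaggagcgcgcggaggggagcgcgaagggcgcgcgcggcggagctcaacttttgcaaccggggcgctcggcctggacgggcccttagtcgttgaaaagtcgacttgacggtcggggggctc
Ptch1: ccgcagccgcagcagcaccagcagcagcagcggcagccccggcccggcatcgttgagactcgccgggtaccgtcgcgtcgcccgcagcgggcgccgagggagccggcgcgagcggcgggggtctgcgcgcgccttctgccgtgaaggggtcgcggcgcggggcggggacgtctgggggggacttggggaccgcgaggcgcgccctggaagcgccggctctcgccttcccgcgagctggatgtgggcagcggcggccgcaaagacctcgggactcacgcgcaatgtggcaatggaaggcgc
The full 9-letter site GACCACCCA or its complement TGGGTGGTC, which contains the core, stood in 0 of the 6 hedgehog windows that RefSeq matched and in 83 of 32851 promoters (0.253%). The 6-letter core stood in 4 of the 6, in Hhip, Gli3, Smo and Gli2, against 31.5% of all promoters. The core began at base 93 of the Hhip window and at base 81 of the Gli3 window, and the Ptch1 window held none. The Ptch1 window lies at a start inside the gene as positioned above, well downstream of its outer 5′ end at 63573598. The Gli3 window likewise begins past the outer start at 15463235. Sequence around these outer ends was not searched, so the Ptch1 result covers the printed window only. These windows were rich in G and C, with 76.3% for Ptch1, 73.7% for Hhip and 71% for Gli3, against a median of 52.7% over all promoters. A match says only that the letters are there.

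Shh, the ligand, was seen in few cells of any group. The gene lies on chromosome 5 (28456815 to 28467256, minus strand). At P21 it was seen in 6 of 71 hair germ cells (8.45%, exact interval 3.16% to 17.5%), with a highest level of 5.49 TPM, and in 0 of 39 bulge cells, which allows a share of up to 7.69%. At P23-P24 it was seen in 4 of 73 hair germ cells (5.48%). At P25-P27 it was seen in 21 matrix cells (10.6%, 6.65% to 15.7%) and in 0 of 16 hair germ cells, which allows up to 18.8%. At P30 it was seen in 1 dermal papilla cell (0.297%), at 1 TPM, and in 19 matrix cells (4.95%, 3.005% to 7.62%). The mean was low and the cells that had it were not: where seen, the median was 15.99 TPM and the highest cell 122.5 TPM in P30 matrix, and 6.49 TPM and 82.5 TPM in P25-P27 matrix. The 3 P25-P27 matrix plates held 2, 10 and 9 Shh cells, and the 5 P30 matrix plates held 2, 3, 7, 6 and 1. A long noncoding RNA, Gm26894, overlaps Shh on the opposite strand. It was seen in 12 P30 matrix cells, 11 of them with Shh, and in 6 P25-P27 matrix cells, 4 of them with Shh. Whether the authors' counting used strand is not given in the sources used here, so reads of overlapping genes cannot be told apart.

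Ptch1, the receptor that restrains Smo until ligand binds, was widely seen and lowest in the bulge. It averaged 23.7 TPM in P21 hair germ (median 9.89, highest 164.6) and 6.93 TPM in P21 bulge (median 0, highest 88.2), and was seen in 73.2% of germ cells (61.4% to 83.1%) and 41.03% of bulge cells (25.6% to 57.9%). The 2 intervals do not overlap, although single cells of both groups ran from 0 to well above the means. Each of these groups had 1 plate, so the intervals hold no spread between plates. It averaged 26.2 TPM in P23-P24 hair germ, 32.6 TPM in P25-P27 matrix and 17.4 TPM in P25-P27 hair germ. At P30 it averaged 24.9 TPM in dermal papilla, with plates between 15.5 and 38.9 TPM and 1 cell at 725.3 TPM, and 16.5 TPM in matrix, with plates between 13.7 and 19.5 TPM. By mean log2(TPM + 1), the order ran from P23-P24 hair germ (3.88) through P25-P27 matrix, P21 hair germ, P30 matrix, P30 dermal papilla and P25-P27 hair germ to P21 bulge (1.35). Shares of cells overlapped within their intervals between all neighbours in this order except P30 matrix (81.2%) and P30 dermal papilla (63.5%), whose plates did overlap.

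Smo, the transducer that Ptch1 holds in check, was seen at close to the same level in all groups. Its group means lay between 13.9 TPM in P21 bulge and 18.98 TPM in P30 matrix, and it was seen in 69.2% to 92.97% of the cells of each group. No comparison moved it by 1 or more on the log2 scale. The P30 matrix mean holds 1 cell at 1009.7 TPM on plate P1-5. Without that cell the plate averaged 18.7 TPM in place of 31.9 TPM, against 15.3 to 17.1 TPM on the other 4 plates.

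Gli1, the transcription factor whose own expression depends on the pathway, was highest in the early hair germ and lowest in the bulge by mean log2(TPM + 1), like Ptch1. At P21 it averaged 16.5 TPM in hair germ (median 8.53, highest 68.5) and 3.37 TPM in bulge (median 0, highest 35.2). It was seen in 71.8% of germ cells (59.9% to 81.9%) and in 30.8% of bulge cells (17.02% to 47.6%). These intervals do not overlap, but each group had 1 plate, so they hold no spread between plates. It averaged 14.4 TPM in P23-P24 hair germ, 13.5 TPM in P25-P27 matrix, where the plates averaged 10.2, 13.8 and 15.7 TPM, and 4.52 TPM in the 16 P25-P27 hair germ cells. At P30 it averaged 5.84 TPM in dermal papilla (plates 4.98 to 7.02) and 3.59 TPM in matrix (plates 1.79 to 5.66), and the plates overlap. The order by mean log2(TPM + 1) ran from P23-P24 hair germ (3.19), P21 hair germ and P25-P27 matrix to P25-P27 hair germ, P30 dermal papilla, P30 matrix and P21 bulge (0.90). The step between P25-P27 matrix and P25-P27 hair germ was 1.25. The next widest step between neighbours was 0.34, and shares overlapped within their intervals at every step. Arhgap9 overlaps the end of Gli1 on the opposite strand and was seen in 63 P30 matrix cells, 26 of them with Gli1.

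Gli2, the main activator of the pathway, was highest in P21 hair germ and lowest in P30 matrix. It averaged 51.8 TPM in P21 hair germ (median 41.5, highest 198.7) and 27.1 TPM in P21 bulge (median 21.4, highest 167.2), and was seen in 91.5% and 94.9% of these cells. It averaged 24.7 TPM in P23-P24 hair germ, where 86.3% of cells had it, 19.2 TPM in P25-P27 matrix, where 69.3% had it (plates 56.4% to 81.6%), and 30.6 TPM in P25-P27 hair germ, where all 16 cells had it. At P30 it averaged 17.7 TPM in dermal papilla (plates 16.3 to 19.2) and 5.84 TPM in matrix (plates 3.85 to 7.71). The plates of these 2 groups do not overlap, and neither do the shares of cells, 76.9% (72.0% to 81.3%) in dermal papilla and 51.6% (46.4% to 56.7%) in matrix.

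Gli3, the main repressor, was highest where Gli2 was lowest. It averaged 19.9 TPM in P21 hair germ, 25.1 TPM in P21 bulge, 13.8 TPM in P23-P24 hair germ, 11.2 TPM in P25-P27 matrix (plates 10.5 to 12.1) and 17.3 TPM in P25-P27 hair germ. At P30 it averaged 28.9 TPM in dermal papilla (median 23.9, highest 129.9, plates 26.3 to 31.5) and 88.01 TPM in matrix (median 65.5, highest 484.0). The 5 P30 matrix plates averaged 70.7, 73.7, 69.4, 83.4 and 139.6 TPM, all above every plate of every other group with 10 or more cells. In P25-P27 matrix the gene was seen in 57.8% of cells (50.6% to 64.7%), and in P30 matrix in 91.4% (88.1% to 94.01%). Gm6556, which overlaps the start of Gli3 on the opposite strand, was seen in 82 P30 matrix cells, all of them with Gli3, at a mean of 0.775 TPM.

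Sufu, which holds the GLI proteins in the cytoplasm, was seen in 43.8% to 79.4% of the cells of each group. Its means were 20.5 TPM in P21 hair germ and 12.2 TPM in P21 bulge, 7.22 TPM in P23-P24 hair germ, 12.6 TPM in P25-P27 matrix and 16.7 TPM in P25-P27 hair germ, 19.4 TPM in P30 dermal papilla and 13.5 TPM in P30 matrix. In P25-P27 hair germ, the 14 cells of plate 913hg averaged 8.23 TPM and the other 2 cells, of plate 914hg, averaged 76.2 TPM.

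Hhip, the membrane-anchored decoy that binds hedgehog ligands, was nearly all in the dermal papilla. The gene lies on chromosome 8 (79965851 to 80058006, minus strand). It was seen in 88.1% of dermal papilla cells (84.2% to 91.4%), with a mean of 132.4 TPM, a median of 105.1 TPM and a highest cell of 596.3 TPM, against 7 P30 matrix cells (1.82%, 0.736% to 3.72%), with a mean of 0.0826 TPM and a highest cell of 14.3 TPM. The 4 dermal papilla plates averaged 104.5, 153.4, 126.1 and 147.5 TPM, and no P30 matrix plate averaged above 0.223 TPM. Among dermal papilla cells with at least 2000 genes, Hhip was seen in 97.7%. Most of the rest was in P25-P27 matrix, where 27 cells (13.6%, 9.13% to 19.1%) had it, at a median of 22.6 TPM among those cells and up to 89.2 TPM. It was seen in 0 of 71 P21 hair germ cells, which allows up to 4.23%, in 1 of 39 bulge cells, in 2 of 73 P23-P24 hair germ cells and in 0 of 16 P25-P27 hair germ cells. A short noncoding RNA, Gm27820, lies inside Hhip on the opposite strand (chromosome 8, 79970390 to 79970564). It averaged 343.2 TPM in dermal papilla, where it was seen in 77.7% of cells, and in 12 P25-P27 matrix cells, and all of these cells had Hhip. Reads of this RNA and of Hhip cannot be told apart.

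**Figure D1:**
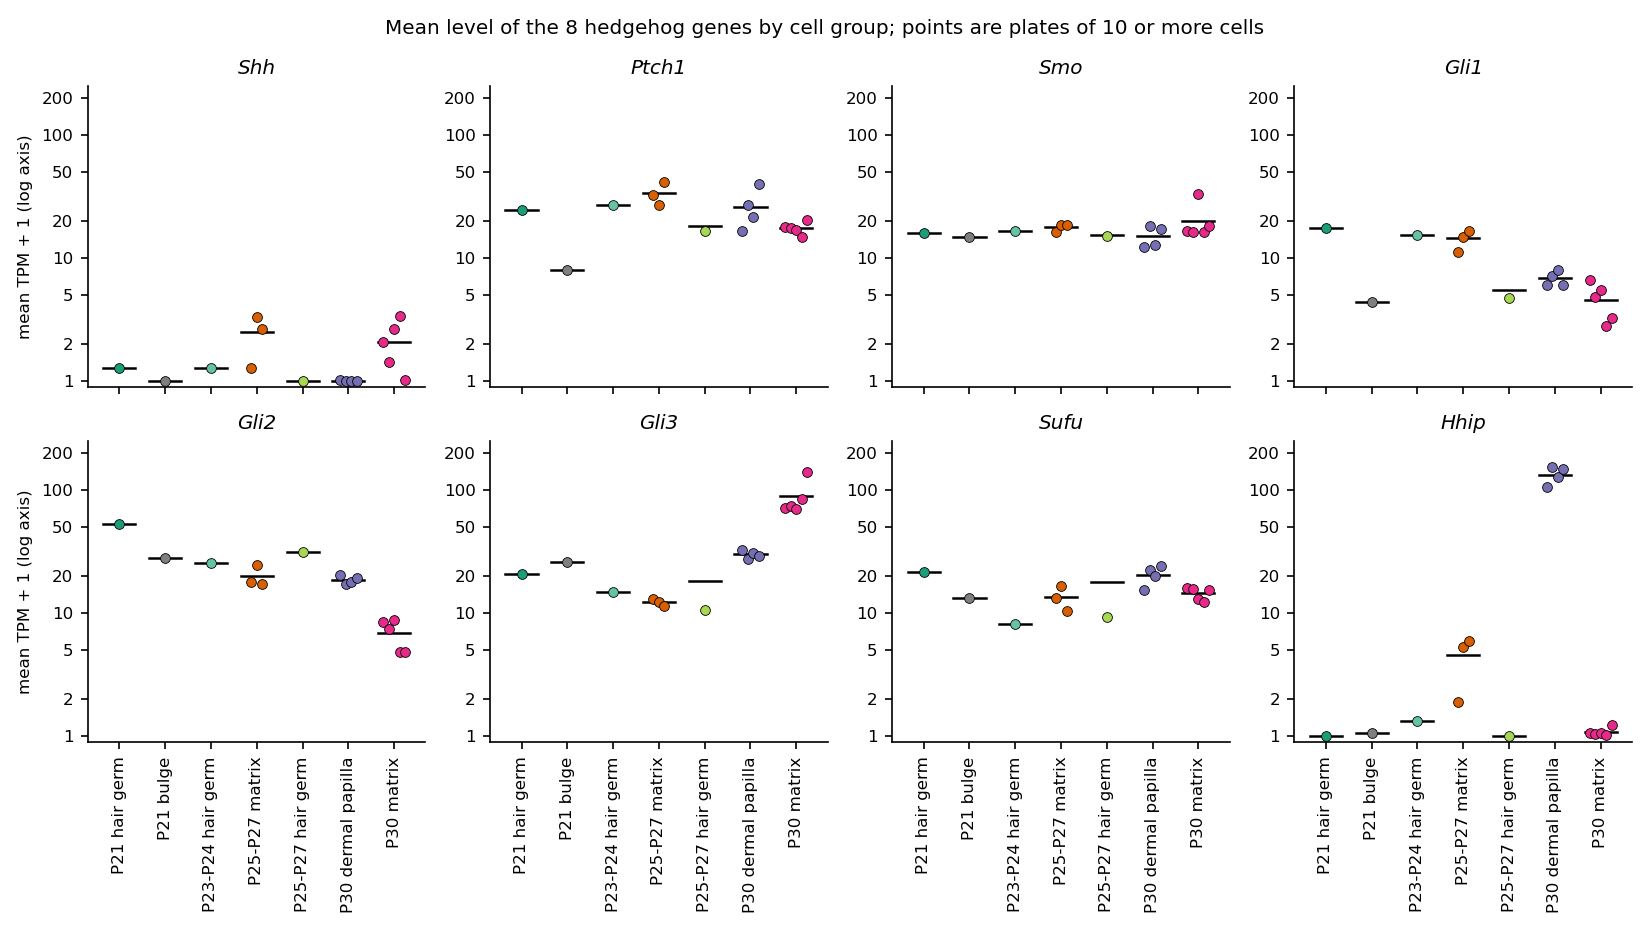
Mean level of each hedgehog gene in 7 cell groups, as mean TPM + 1 on a log axis, where bars are means over all cells of a group and points are means of plates with 10 or more cells. Hhip stands at 132.4 TPM in P30 dermal papilla and at 3.59 TPM or less elsewhere, Gli3 at 88.01 TPM in P30 matrix, and Smo is close to level across the groups.

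**Figure D2:**
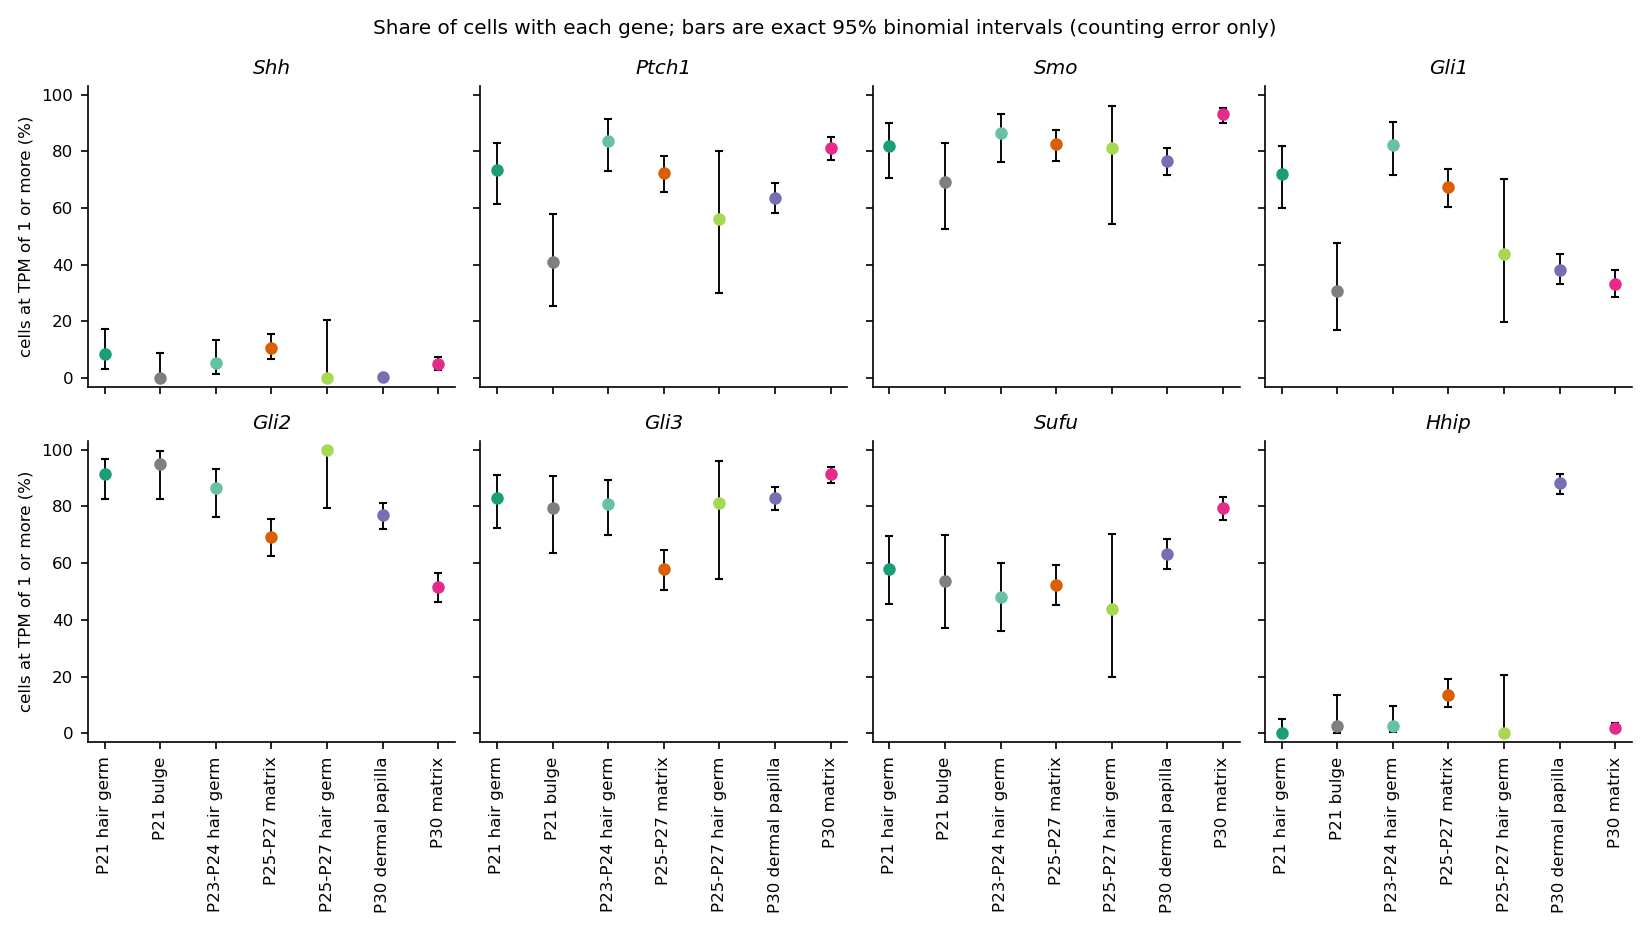
Percent of cells with each gene at 1 TPM or more in the same 7 groups, where bars are exact 95% binomial intervals that cover counting error only. Gli1 and Ptch1 are seen in more P21 hair germ cells (71.8% and 73.2%) than P21 bulge cells (30.8% and 41.03%), and Shh reaches at most 10.6% of a group.

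The groups were then set against each other by the difference of mean log2(TPM + 1), first group minus second, and a gene was named as higher or lower at an absolute difference of 1 or more. Such differences understate the fold of low genes. They also lean on whether a gene was seen: with a pseudocount of 10, Gli3 between the matrix groups (1.83) and Hhip between the P30 groups (3.16) were still past 1, and no other difference of a hedgehog gene was, with Gli1 at 0.81 and Ptch1 at 0.78 for P21 hair germ minus bulge. Genes seen in 30% of cells or more, in either group compared, entered the background. Of the 8 genes, 6 did so in every comparison and Hhip only between the P30 groups. Shh never did. The share of all genes past a difference of 1, given with each comparison, is the background to read the counts against.

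P21 hair germ differed from P21 bulge in the pathway's 2 readouts. Gli1 was 2.06 higher and Ptch1 1.81 higher in the germ, and no hedgehog gene was lower by 1, where 12.4% of 8847 genes were past a difference of 1. Gli2 (0.87), Sufu (0.67), Smo (0.37) and Gli3 (0.05) did not reach it, and the median gene stood at 0.21. Among cells with at least 2000 genes, Gli2 was at 1.09. Of the coreceptors, which help ligand reach Ptch1, Gas1 was 2.16 lower (43.9 TPM in germ, 78.9 TPM in bulge), Cdon 2.08 lower (22.1 TPM in germ, 51 TPM in bulge) and Boc 1.38 lower (52.1 TPM in germ, 84.5 TPM in bulge). Of 10 genes reported elsewhere as targets, 6 passed the filter, with Mycn (3.16) and Ccnd2 (1.54) higher and Sfrp1 (-2.43) and Sox9 (-1.55) lower. None of 13 cilium and transduction genes reached 1. The germ cells held a median of 6215 genes per cell and the bulge cells 5529. Germ and bulge cells each came from 1 plate, so plate and cell type cannot be told apart.

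P23-P24 hair germ differed from P21 hair germ most in the inhibitor Sufu and the activator Gli2. Sufu was 1.06 lower and Gli2 1.01 lower, where 15.4% of 9540 genes were past a difference of 1. Ptch1 (0.72) and Gli1 (0.23) did not reach it. Gli2 was at -0.94 among cells with at least 2000 genes and at -0.93 with TPM rescaled to leave out spike-in, ribosomal and mitochondrial RNA. The coreceptors Boc, Cdon and Gas1 did not reach 1. Of the reported targets, Mycn was 1.79 lower (6.29 TPM at P23-P24, 30.3 TPM at P21) and Ccnd2 1.19 higher (72.6 TPM at P23-P24, 62.7 TPM at P21). Of 15 cilium and transduction genes, Prkaca (1.43), a catalytic subunit of the kinase that primes GLI proteins for cutting, and Evc (1.08), a ciliary partner of Smo, were higher, and Spop (-1.25), an adaptor that marks GLI proteins for breakdown, was lower. Each age had 1 plate, so plate and age cannot be told apart.

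The 16 P25-P27 hair germ cells had less of both readouts than P23-P24 hair germ. Gli1 was 1.82 lower and Ptch1 1.59 lower, where 20.7% of 9405 genes were past a difference of 1 and the median gene stood at -0.30. Gli2 (0.89), Sufu (0.14), Gli3 (-0.08) and Smo (-0.14) did not reach 1. As a log2 ratio of mean TPM, Ptch1 was at -0.57. Without plate 913hg only 2 cells are left, and Gli1 was at -0.98, Ptch1 at -0.93 and Sufu at 4.53. Of the other lists, Scube2 (1.30), which helps release the ligand, Gas1 (1.24), Sfrp1 (2.26) and Sox9 (1.85) were higher, and Ccnd2 (-2.30), Ift88 (-1.06) and Evc (-1.05) were lower.

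P25-P27 matrix and P23-P24 hair germ differed by less than 1 in all 8 genes, where 12.3% of 9205 genes were past a difference of 1. Of the 8, only 6 entered the background, too few for the absence of such a difference to stand out from that share. The median gene stood at -0.30, with 0.945% of genes higher by 1 and 11.4% lower. The furthest of the 8 were Gli2 (-0.86), Gli3 (-0.81), Gli1 (-0.57), Hhip (0.49) and Ptch1 (-0.40). Plates of the matrix spread widely for Gli1, between -1.28 and -0.13, and for Gli2, between -1.49 and -0.26. Within P25-P27, the matrix cells had more of the readouts and less of the activator than the hair germ cells. Gli1 was 1.25 higher, Ptch1 1.197 higher and Gli2 1.75 lower, where 13.3% of 8423 genes were past a difference of 1. The coreceptor Boc was 1.33 lower. Without plate 913hg, Gli1 was at 0.41 and Ptch1 at 0.53, while Gli2, Gli3 and Sufu were each lower by 1 or more. Plates 914mat and 914hg share the start of their names, and between them mean log2(TPM + 1) of Gli1 was 1.90 in the 55 matrix cells and 2.202 in the 2 hair germ cells, the opposite order. Without plate 915mat, Gli1 was at 0.99. As log2 ratios of mean TPM, Ptch1 was at 0.87 and Gli2 at -0.64. The comparisons with P23-P24 hair germ, and those with P25-P27 hair germ, share those cells.

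P30 matrix differed from P25-P27 matrix in all 3 GLI genes. Gli3 was 3.09 higher, Gli1 1.55 lower and Gli2 1.40 lower, where 16.6% of 9772 genes were past a difference of 1 and the median gene stood at 0.34. Sufu (0.96), Smo (0.28) and Ptch1 (-0.44) did not reach 1. Leaving out any single plate kept Gli3 between 2.78 and 3.26, Gli1 between -1.83 and -1.29 and Gli2 between -1.65 and -1.04. Melanocyte markers moved with these values: 41.4% of P30 matrix cells and 0.503% of P25-P27 matrix cells had 3 or more of the 4. Among cells without 3 or more markers of another cell type, which leaves out 50.5% of P30 matrix and 3.52% of P25-P27 matrix, Gli3 was at 2.47, Gli1 at -1.33 and Gli2 at -0.91. Of the coreceptors, Gas1 was 2.95 lower (7.22 TPM at P30, 49.3 TPM at P25-P27) and Boc 1.45 lower (7.46 TPM at P30, 34.8 TPM at P25-P27).

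P30 dermal papilla differed from P30 matrix by 5.89 in Hhip, the largest difference of any hedgehog gene here. Gli2 was 1.41 higher and Gli3 1.35 lower in dermal papilla, where 39.2% of 10296 genes were past a difference of 1 and the median gene stood at -0.56. Gli1 (0.30), Sufu (-0.17), Ptch1 (-0.32) and Smo (-0.61) did not reach 1. Among cells without 3 or more markers of another cell type, Hhip was at 5.89, Gli2 at 0.91 and Gli3 at -0.67, and among cells with at least 2000 genes Gli3 was at -0.995. Of the coreceptors, Gas1 (2.26) and Boc (1.48) were higher. Gpc3, a proteoglycan known to compete with Ptch1 for ligand, was 1.98 higher. Scube3, which helps release the ligand, was 2.78 higher, with 76.1 TPM in dermal papilla and 4.75 TPM in matrix. Among dermal papilla genes linked to hedgehog, the epithelial growth factor Fgf7 was 5.77 higher (150.1 TPM in dermal papilla and 0.357 TPM in matrix), and seen in 86.9% of dermal papilla cells and 1.30% of matrix cells. Its relative Fgf10 was 4.36 higher (190.5 TPM in dermal papilla and 0.00424 TPM in matrix), and seen in 81.01% and 0.260% of these cells. The BMP inhibitor Nog was 1.13 higher, and seen in 31.5% and 0.521%. These genes entered the background only through the dermal papilla, so their number is not given as a result. The dermal papilla cells held a median of 5759 genes and the matrix cells 7361.5. The other ligands, Ihh and Dhh, were seen in at most 1.41% and 2.74% of the cells of any group.

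**Figure D3:**
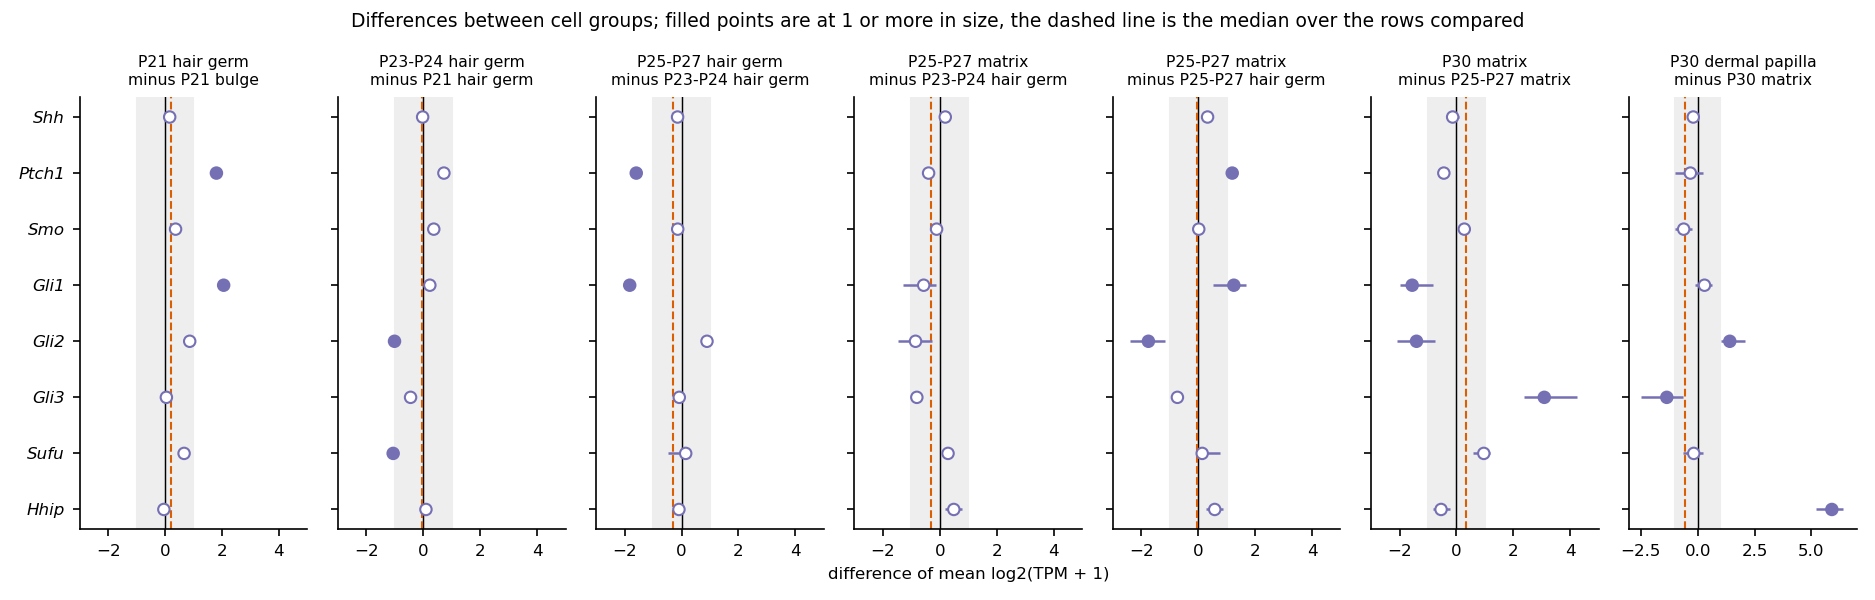
Difference of mean log2(TPM + 1) for each hedgehog gene in 7 comparisons, where filled points are at 1 or more in size, the shaded band is the range below 1, the dashed line is the median of all genes compared, and thin lines span the values obtained with each plate of 10 or more cells of either group in turn. The last panel has its own axis range, to hold Hhip at 5.89.

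Within each group, Gli1 was seen in a larger share of the cells with Ptch1 than of the cells without it. In P25-P27 matrix these shares were 77.1% (69.3% to 83.7%) with Ptch1 and 41.8% (28.7% to 55.9%) without. In P30 dermal papilla they were 46.7% and 23.6%, and in P30 matrix 36.9% and 18.1%. In P21 hair germ they were 78.8% and 52.6%, and in P21 bulge 9 of 16 cells and 3 of 23. The 33 dermal papilla cells with fewer than 2000 genes had neither Gli1 nor Ptch1. They all count among the cells without Ptch1, so they lower the dermal papilla share of 23.6% and widen its gap to 46.7%. The share without these nearly empty wells was not computed. Deeper cells show more genes, so correlations over cells are given within plates and with the number of genes seen removed, as descriptions. So treated, Gli1 and Ptch1 had a Pearson r of 0.30 in P21 bulge, 0.36 in P21 hair germ, 0.27 in P23-P24 hair germ, 0.42 in P25-P27 matrix, 0.32 in P30 dermal papilla and 0.37 in P30 matrix. Gli1 and Gli2 had 0.48 in P25-P27 matrix and 0.42 in P30 matrix, but 0.15 in P30 dermal papilla and 0.07 in P21 hair germ.

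Gli3 stood differently to the other GLI genes in the 2 matrix groups, a difference that was not tested. In P25-P27 matrix its r was 0.23 with Gli1 and 0.27 with Gli2. In P30 matrix it was -0.24 with Gli1, -0.21 with Gli2 and -0.19 with Shh. The rows most like Gli3 in P30 matrix, before genes seen were removed, were Foxq1 (0.76), Dsg3 (0.76), a desmosomal cadherin of keratinocytes, and Unc5b (0.75), a netrin receptor. In P30 dermal papilla, Hhip had 0.27 with Gli1, 0.23 with Ptch1 and 0.20 with Gli2. Ptch1 and Hhip gave 0.41 and Gli2 and Hhip 0.44 before plates and genes seen were removed. Hhip was most like Col6a3 (0.81), a collagen chain, Wif1 (0.81), a WNT inhibitor, and Enpp2 (0.79), and nearly empty wells are among these cells.

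**Figure D4:**
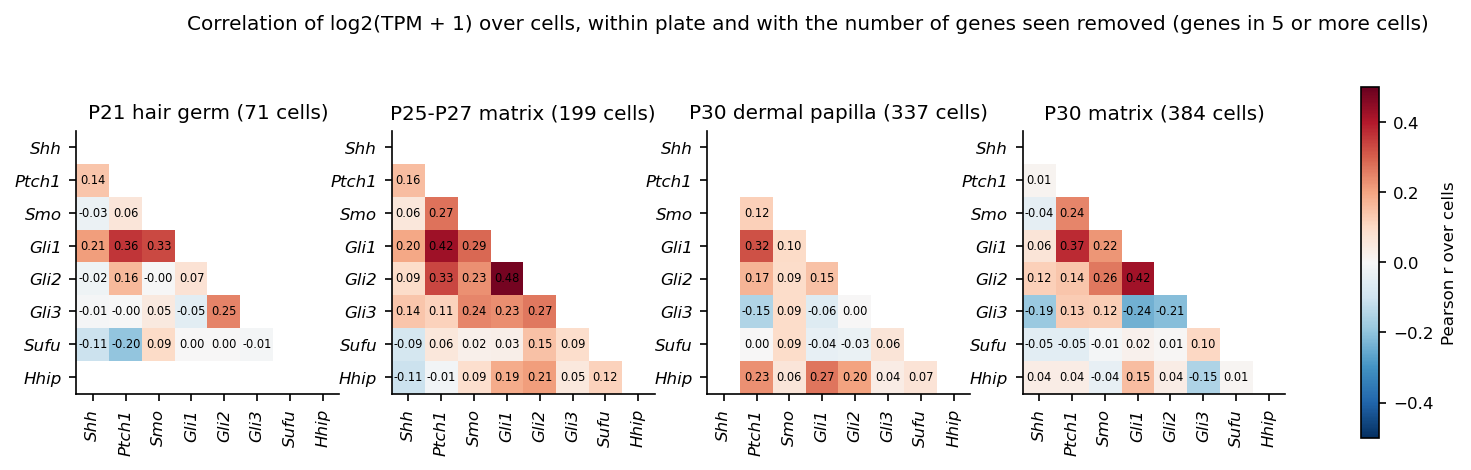
Pearson r of log2(TPM + 1) over cells for pairs of hedgehog genes in 4 cell groups, within plate and with the number of genes seen removed, for genes in 5 or more cells of the group. Gli1 with Ptch1 is between 0.32 and 0.42 in all 4, and Gli3 with Gli1 is 0.23 in P25-P27 matrix and -0.24 in P30 matrix.

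In P25-P27 matrix, a larger share of the cells with Shh than of the others had Gli1. It was seen in 21 of 21 Shh cells (83.9% to 100%), at a mean of 24 TPM, against 63.5% of the other cells (55.95% to 70.6%), at 12.2 TPM. Ptch1 was seen in 20 of 21 Shh cells (76.2% to 99.9%), at 56.5 TPM, against 69.7% of the others (62.3% to 76.3%), at 29.8 TPM, and these intervals overlap. Gli3 was seen in 90.5% against 53.9%. No cell of this group had both Shh and Hhip, where 15.2% of the cells without Shh had Hhip and the exact upper bound for 0 of 21 is 16.1%. The Shh cells had a median of 6801 genes and the others 5317.5, and the part of this in the higher shares was not tested.

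The rows most like Shh over these cells were Scube3 (0.66), Wnt10b (0.63), a WNT ligand of the early hair germ, and Bach2os (0.63). Wnt10b, picked for its likeness to Shh in these same cells, was seen in 80.95% of Shh cells and 9.55% of the others. Other genes, picked from the lists after their values were seen, set the Shh cells apart within the group. Lef1, a WNT effector, was seen in 100% of Shh cells and 34.8% of the others, Mycn in 90.5% and 29.2%, and Msx2, a homeobox gene of the matrix, in 80.95% and 16.9%. Sox9, a factor of bulge and outer root sheath, was seen in 9.52% of Shh cells and 74.2% of the others, Nfatc1, a bulge factor, in 19.05% and 67.4%, and the coreceptor Gas1 in 23.8% and 78.7%. Matrix markers, 3 or more of them, were seen in 12 of 21 Shh cells (57.1%) and 5.06% of the others. Hair germ markers, 3 or more of them, were seen in 95.2% of Shh cells and 42.1% of the others, and those of inner root sheath and shaft in 13 of 21 (61.9%) and 6.74%. Of the dermal papilla markers, Corin, Rspo3, Alpl, Sox2, Sox18, Crabp1 and Pdgfra, each seen in at most 3.0% of the group, were at 0 in all 21. Vcan and Prdm1, seen in 6.5% and 30.2% of the group, were not. The summed level of the list in the 21 cells had a median of 0 TPM and reached 81.58 TPM. The fibroblast marker Dcn was seen in 38.1% of Shh cells and 3.93% of the others, while 1 of 21 had 3 or more of 5 fibroblast markers.

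In P30 matrix the 19 Shh cells had more Gli2 and less Gli3. Gli2 was seen in 17 of 19 (89.5%, 66.9% to 98.7%), at a mean of 12.6 TPM, against 49.6% of the other cells (44.3% to 54.8%), at 5.49 TPM. Gli3 averaged 17.9 TPM (median 12.4, highest 74.1) in Shh cells and 91.7 TPM (median 73.5, highest 484.0) in the others, though it was seen in about the same share, 89.5% and 91.5%. Gli1 was seen in 52.6% of Shh cells (28.9% to 75.6%) and 32.3% of the others (27.5% to 37.4%), and these intervals overlap. Wnt10b (89.5% and 7.67%) and Lef1 (100% and 75.9%) were again seen in more of the Shh cells, and Krt75 (10.5% and 72.1%) and Padi3 (31.6% and 82.5%), of differentiating hair lineages, in fewer. The release factor Scube3, which went with Shh at P25-P27, was seen in 10.5% of Shh cells and 44.7% of the others here. Of the 4 melanocyte markers, 3 or more were seen in 1 of 19 Shh cells and 43.3% of the others. The Shh cells had a median of 8159 genes and the others 7300. Dcn was seen in 15 of 19 Shh cells (78.9%) and 24.1% of the others.

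**Figure D5:**
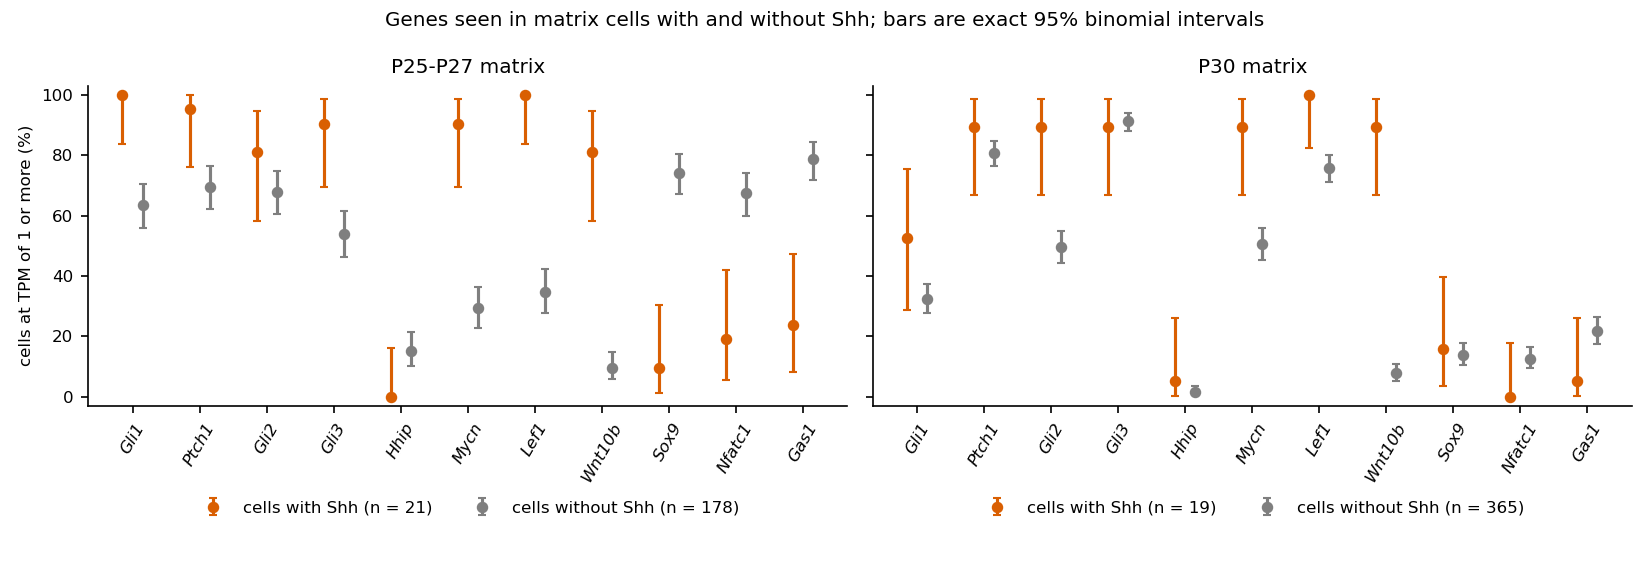
Percent of cells with each gene at 1 TPM or more among matrix cells with and without Shh at P25-P27 and P30, where bars are exact 95% binomial intervals. Mycn, Lef1 and Wnt10b are seen in more Shh cells at both ages, and Sox9, Nfatc1 and Gas1 are seen in fewer Shh cells at P25-P27. Wnt10b was picked for its likeness to Shh at P25-P27, and Mycn, Lef1, Sox9, Nfatc1 and Gas1 after their values were seen.

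All 19 Shh cells of P30 matrix were cycling, by at least 2 of Mki67, Top2a, Ccna2, Cdk1 and Ccnb1. Shh was seen in 9.22% of the cycling cells (5.64% to 14.03%) and in none of the others, where the exact upper bound is 2.05%. By Mki67 alone, 18 of the 19 were among the cells with it. In P23-P24 hair germ, all 4 Shh cells were among the 38 cycling cells and none among the 35 others. In P25-P27 matrix, 6 of 20 cycling cells had Shh (30%, 11.9% to 54.3%) and 15 of the others had it (8.38%, 4.77% to 13.4%), and at P21 no germ cell was cycling by this rule although 6 had Shh. In P30 matrix, Gli1 was seen in 44.7% of cycling cells (37.7% to 51.7%) and 20.2% of the others (14.6% to 26.9%), and Gli2 in 64.6% and 36.5%. Smo (96.6% and 88.8%) and Sufu (85.4% and 72.5%) were also seen in more cycling cells. Ptch1, the other readout, was seen in 82.04% and 80.3%, and averaged 15.8 TPM in cycling cells and 17.4 TPM in the others. Gli3 was seen in more cycling cells, 95.1% against 87.1%, but averaged 78.4 TPM in them and 99.2 TPM in the others. P30 matrix cells with Gli1 had a median of 7691 genes, against 7151.5 in those without it. These medians were 7734.5 and 6826.5 for Gli2, 7442 and 5495 for Smo, 7589 and 6374 for Sufu, and 7443.5 and 6869.5 for Ptch1. The part of genes seen in the higher shares of cycling cells was not tested.

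The 27 Hhip cells of P25-P27 matrix mostly carried keratinocyte markers, as did the other cells of the group. Of the 27, 26 (96.3%) had 3 or more of the 5 keratinocyte markers, against 95.3% of the other cells. None had 3 or more dermal papilla markers, against 1.16% of the others. Corin, Rspo3, Alpl, Sox18, Crabp1 and Pdgfra, each seen in at most 3.0% of the group, were at 0 in all 27. Vcan, Sox2 and Prdm1, also of that list, were not. The summed dermal papilla marker level of the 27 cells was 0 to 181.8 TPM with a median of 13.2 TPM. The median was 0 in the other cells of the group and 1689 TPM in the Hhip cells of the dermal papilla. Prdm1, of the same list, was seen in 59.3% of Hhip cells (38.8% to 77.6%) and 25.6% of the others (19.2% to 32.8%). Of the 27, 1 had 3 or more immune markers, with a summed level of 574.1 TPM. They were spread over the 3 plates as 4, 10 and 13 cells. Gli2 was seen in 24 of 27 Hhip cells (88.9%, 70.8% to 97.6%), against 66.3% of the others (58.7% to 73.3%), and Gli1 in 77.8% against 65.7%. Ptch1 was seen in 63% and 73.8%. These intervals overlap for each of the 3 genes. Of the 6 bulge markers, 3 or more were seen in 96.3% of Hhip cells and 72.1% of the others. Among genes picked after their values were seen, Sox9 was seen in 100% of Hhip cells and 62.2% of the others, Nfatc1 in 88.9% and 58.1%, and Postn in 85.2% and 47.7%, while Lef1 was seen in 11.1% and 46.5%. The rows most like Hhip in these cells were the integrin chain Itga4 (0.57), Nrep (0.54) and Crispld1 (0.53). Hhip cells had a median of 4717 genes and the others 5509.5.

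Over the 16 plates of 10 or more cells, which share cell types, strains and sorts, Gli3 ran opposite to both other GLI genes, with r of -0.69 against Gli2 and -0.67 against Gli1, and along with Sufu (0.76). Gli1 and Ptch1 had 0.60. The rows most like Hhip over plates were Fbn2, Clmp and Masp1 (each 1.00 after rounding), the rows most like Gli3 were Srgap3, Nsmaf and Lactb2 (0.96, 0.96 and 0.95), and those most like Gli1 were Sox13, Adcy7 and Scnn1b (0.94, 0.94 and 0.92). Among cells, the rows most like a hedgehog gene included, besides Scube3 for Shh, other genes of the pathway: Gli1 for Ptch1 in P30 matrix (0.39) and Ptch1 for Gli1 in P30 dermal papilla (0.36).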

How the data were processed

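The authors deposited 3 tables of TPM, 1 column a cell, and a table of cell types that was used as their annotation. The submitters' processing notes name Bowtie2 2.2.9, RSEM 1.2.30 and the build mm10, with no further settings, and the libraries were paired-end, per the labels' protocols. Every column summed to between 999999.02 and 1000000.77. TPM keeps no read depth, so depth is unknown, and the number of genes at 1 TPM or more stands in for it. Medians of 54.5% to 76.8% of TPM fell on ribosomal RNA rows. Spike-in rows took medians from 0.709% in P30 matrix to 14.4% in P21 bulge, with 8.23% in P30 dermal papilla. Both lower the TPM of all other genes in the groups where their joint share is high. No cell's values were identical to another's.

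Groups are the authors' type by age. Python 3.11.15 with numpy 2.4.6, pandas 2.3.3 and scipy 1.17.1 gave, for each gene, mean TPM, the share of cells at 1 TPM or more with exact Clopper-Pearson intervals at 95%, and differences of mean log2(TPM + 1), computed here from the deposited TPM with a pseudocount of 1. The limit for a count of 0 is 3 cells of the total. Genes in the background were at 1 TPM or more in 30% of the cells of either group, leaving out spike-in, ribosomal and mitochondrial RNA. Plates come from the titles and show technical spread only. Positions are from GENCODE M21 (GRCm38) and promoters from RefSeq, for 6 of 8 genes. The summaries were also run on simulated data with a normal spread, modelled on P23-P24 hair germ. Differences were set there only in genes of a higher mean level than any hedgehog gene had in that group. Recovery of differences at the level of the hedgehog genes was therefore not checked. The 8 genes and the 6 lists of 45 other pathway genes were chosen with earlier results of these data known. All 8 genes were named, up to 4 genes a list and comparison with the largest differences, coreceptors, and the 3 rows most like a gene over plates, or over the cells of a group where it was seen in 10% of them, without predicted models. Results on 1 listed gene are not reported here. Alternatives were other pseudocounts, log2 ratios of mean TPM, rescaled TPM and cells with at least 2000 genes. No filter on low values, other thresholds for a gene to be seen and each plate left out were also run. Leaving out cells with 3 or more markers of another type was added after the marker levels were seen.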

Additional observations from a re-analysis of the deposited data

Results flagged for a closer look

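Over the 16 sets of a gene and a P30 group with 4 or 5 plates, 4 had a plate mean far from the others. The rule used flags about 1 in 20 sets of values with a normal spread. Plate means that rest on 1 or a few cells lack such a spread, so the 4 cannot be set against that rate. Smo averaged 31.9 TPM on P30 matrix plate P1-5, against 15.3 to 17.1 TPM on the other plates, and 18.7 TPM without the 1 cell at 1009.7 TPM. Gli3 averaged 139.6 TPM on P30 matrix plate P2-1, against 69.4 to 83.4 TPM on the others, with a median of 139.2 TPM over its 81 cells. Hhip averaged 0.223 TPM on the same plate, against 0.0291 to 0.0586 TPM, and 0.0466 TPM without its highest cell. Shh averaged 0.0201 TPM on dermal papilla plate DP2, where 1 of 87 cells was at 1.00 TPM, against 0 on the other plates. The causes were not tested.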

How the results depend on the processing

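No difference of 1 or more changed sign under any alternative run. The count of hedgehog genes past a difference of 1 was most open to the pseudocount. At a pseudocount of 10 it was 0 for P21 hair germ minus bulge, for P23-P24 minus P21 hair germ, for P25-P27 minus P23-P24 hair germ and for P25-P27 matrix minus hair germ, and 1 for P30 matrix minus P25-P27 matrix (Gli3, 1.83) and for P30 dermal papilla minus matrix (Hhip, 3.16). At a pseudocount of 0.1 it was 3 for P25-P27 matrix minus P23-P24 hair germ and 5 for P25-P27 matrix minus hair germ. With cells of at least 2000 genes it was 3 for P21 hair germ minus bulge, 1 for P23-P24 minus P21 hair germ and 1 for P25-P27 matrix minus P23-P24 hair germ. That last comparison also had 1 by log2 ratio of mean TPM and 1 with rescaled TPM. Without cells that carry markers of another type, 1 was left for P30 dermal papilla minus matrix. Leaving out each plate gave 1 to 2 for P25-P27 minus P23-P24 hair germ (1 without plate 913hg, where it was Sufu and no longer Gli1 and Ptch1) and 0 to 1 for P25-P27 matrix minus P23-P24 hair germ (1 without plate 915mat). For P25-P27 matrix minus hair germ, 2 higher and 1 lower became 0 higher and 3 lower without plate 913hg. Of all 76 such counts, 61 stayed within 1.5 times the main count. Of 608 recomputed differences of single genes, 500 moved by less than the spread between plates or the limit used where there was 1 plate. Dropping the filter on low values cannot change either kind of value. It gave 7 of the 76 counts and 56 of the 608 differences, all unmoved. Rescaling TPM to leave out spike-in, ribosomal and mitochondrial RNA moved the median gene to 0.77 for P30 matrix minus P25-P27 matrix and to -0.99 for P30 dermal papilla minus matrix, with 42.6% and 61.6% of genes past 1, and there Gli3 was at 4.05 and Hhip at 7.85. It also moved the split of genes higher and lower by 1, to 36.7% and 5.87% from the main 11.1% and 5.49% for P30 matrix minus P25-P27 matrix, to 16.9% and 7.91% from 8.55% and 6.84% for P23-P24 minus P21 hair germ, and to 12.98% and 12.6% from 5.24% and 8.07% for P25-P27 matrix minus hair germ. As log2 ratios of mean TPM, the higher and lower shares were 5.05% and 16.3% for P23-P24 minus P21 hair germ, 6.47% and 8.79% for P30 matrix minus P25-P27 matrix, 10.5% and 5.53% for P25-P27 matrix minus hair germ, and 15.3% and 16.4%, in place of 10.4% and 28.8%, for P30 dermal papilla minus matrix. They were also 10.1% and 3.26%, in place of 8.08% and 4.34%, for P21 hair germ minus bulge, and 3.22% and 6.34%, in place of 0.945% and 11.4%, for P25-P27 matrix minus P23-P24 hair germ. The causes were not tested. No paired analysis was possible because no result comes from a test and the labels name no animal. Plate names share a start for 819b with 819hg and for 914hg with 914mat, and what it marks is not given in the sources used here. Depth is unknown in TPM, and a gene not seen in a cell may have been missed.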
